A study of Homo sapiens with 18 samples.

Results

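Desert peaks were taken as the DRIP peaks whose nearest protein-coding or lncRNA gene body of the GENCODE annotation on hg19 lay more than 50 kb away, each peak list read on its own. They numbered 11120 of the 288223 peaks in the 6 DRIP lists, and the other 277103 peaks, inside genes or within 50 kb of one, are called other peaks here. In DRIP the S9.6 antibody pulls DNA-RNA hybrids out of genomic DNA cut with restriction enzymes, and a second aliquot was digested with RNase H before the same immunoprecipitation. The cells were HCT116, an established line from a human colorectal carcinoma. One group received no treatment (NT), and the others received 10 µM camptothecin (CPT), a poison of topoisomerase I (Top1), for 5 or for 60 min. Each group had 2 biological replicates, each with a DRIP, an RNase H and an input library. As far as the labels state, CPT was the only difference between groups and no cell carried a genetic change made for the study. The harvest, per the methods, left a short drug-free interval before lysis. The lists hold no read counts, so the depth behind a peak is unknown here. They ranged from 30314 to 72879 peaks, and replicate 2 had the longer list in each treatment.

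DNA-RNA hybrids form mostly where RNA is being made: the nascent transcript anneals to its template behind RNA polymerase II and leaves the other DNA strand unpaired, a structure called an R loop. Top1 relaxes the supercoils that transcription generates, and CPT traps it on DNA as a cleavage complex. Gene deserts are long stretches with no annotated gene. They are typically AT-rich, late replicating and dense in old transposable elements such as LINE-1, a retrotransposon present in a great many copies.

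The sequences below carry a pattern that many desert peaks shared. The first set holds 6 words of 24 bases that recurred in windows of 500 bases around desert summits, picked after the peaks were seen. Of these, 5 are printed. Their letters belong, as general knowledge, to the LINE-1 retrotransposon. No repeat annotation was used. Each occurs 14901 to 19953 times in the GRCh37 reference, either strand counted. The printed words 2, 3, 5 and 6 most often lay 88, 58, 16 and 61 bases from word 1, so that they mark one short stretch of the element.
word 1: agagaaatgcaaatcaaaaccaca
word 2: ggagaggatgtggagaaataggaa
word 3: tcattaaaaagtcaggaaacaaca
word 5: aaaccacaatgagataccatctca
word 6: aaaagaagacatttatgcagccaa

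The second set shows 30 bases of the plus strand across an edge of peaks in a pair of named desert regions (inside the merged region for the first, at its end for the second), with the restriction site at that edge in capitals, since 49.0 to 63.9% of the desert peaks of a list had an edge within 1 base of such a site. Each site belongs to the enzyme mix used before immunoprecipitation (HindIII AAGCTT, EcoRI GAATTC, XbaI TCTAGA, SspI AATATT and BsrGI TGTACA, each the same on both strands).
no change, SspI, chr1:228784348-228784377: gctttacagttgAATATTttctttcagaat
late loss, EcoRI, chr19:57493324-57493353: gaagagctgataGAATTCagatcgacaagg

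Desert peaks were most numerous after 5 min of CPT in both replicates, and in replicate 1 the rise was the larger. The NT lists held 1467 and 1304 desert peaks in replicates 1 and 2, the 5 min lists 3142 and 1917, and the 60 min lists 1724 and 1566. No 2 of the 3 treatments overlapped in this number. Within a replicate the number grew 2.14-fold and 1.47-fold from NT to 5 min and 1.18-fold and 1.20-fold from NT to 60 min. Other peaks grew 1.06-fold in both replicates from NT to 5 min and 1.38-fold in both from NT to 60 min. Desert peaks therefore grew more than other peaks at 5 min and less at 60 min, in each replicate. The mean number rose by 1144 peaks at 5 min (from 1385.5 ± 115 to 2529.5 ± 866, SD, n = 2 each), with p = 0.333 by the two-sided exact permutation test, the smallest p that 2 libraries against 2 allow. The differences of 259.5 peaks between 60 min and NT and of -884.5 between 60 and 5 min gave the same exact p of 0.333. After Benjamini-Hochberg adjustment over 15 treatment comparisons all 3 stood at 0.833, so none passed. With all lists cut to 30314 peaks, the size of the shortest, the lists held 1467 and 527 desert peaks in NT, 2814 and 739 at 5 min, and 1067 and 251 at 60 min. There the 5 min lists stayed the highest in each replicate, whereas the 60 min lists fell below NT, which turned the direction of the 60 min difference to -338.

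As a share of its list, the desert part was 4.84% and 2.46% in NT, 9.28% and 3.39% at 5 min, and 4.14% and 2.15% at 60 min. Each 95% Wilson interval was narrow (8.98 to 9.60% for 5 min replicate 1), and covers counting error only. The replicates of a treatment lay farther apart than the treatments did in replicate 2. The mean share rose by 2.69 percentage points at 5 min and fell by 0.51 at 60 min against NT, with p = 0.667 for both in the exact permutation test. Replicate 1 at 5 min stood apart from the 5 other lists, and without it the 5 min difference in share became -0.26 percentage points and that in number 531.5 peaks, while the 60 minus 5 min difference in number became -272. Without 5 min replicate 2 the differences in number were 1756.5 and -1497. Width, rank and RNase H overlap of desert peaks did not pass any of their 9 treatment comparisons either, whose exact p-values were 0.667 or 1.

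**Figure D1:**
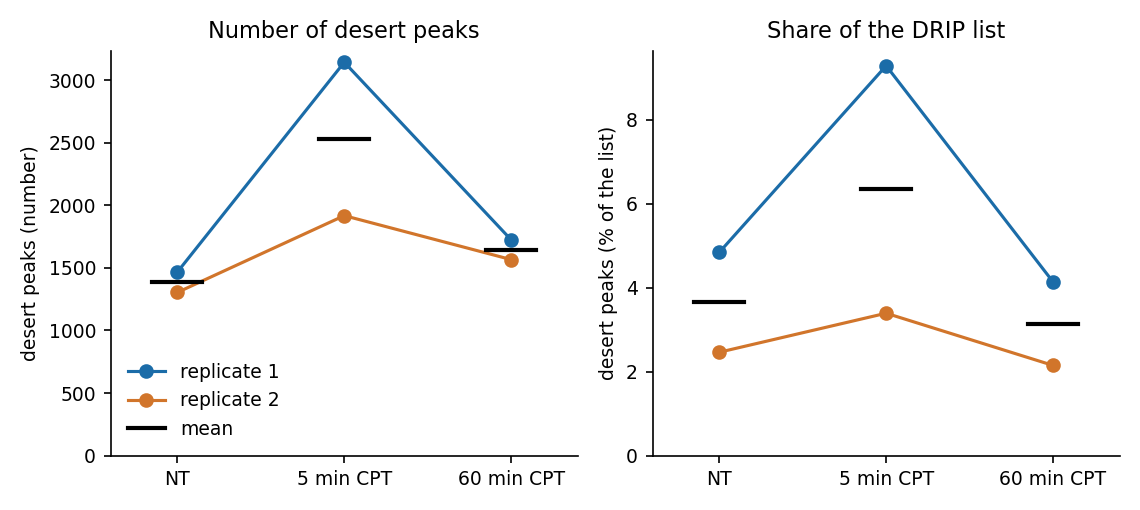
Number of desert peaks (left, vertical axis in peaks) and their share of the DRIP list (right, in percent) by treatment (NT, 5 min of CPT, 60 min of CPT); circles joined by a line are the libraries of one replicate and black bars are means of 2 libraries. Both replicates peak at 5 min, at 3142 and 1917 desert peaks, and the replicate 1 line is the steeper.

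Desert DNA carried fewer DRIP peaks per Mb than the rest of the genome in every list. It made up 430.8 Mb, or 15.2% of the sequence without N, with a GC content of 37.8% against 41.5% elsewhere. Peaks per Mb of desert were 3.41 and 3.03 in NT, 7.29 and 4.45 at 5 min, and 4.00 and 3.64 at 60 min. The rest of the genome held 11.995 and 21.5 in NT, 12.8 and 22.7 at 5 min, and 16.6 and 29.7 at 60 min. The mean log2 ratio of desert to rest was -2.15 ± 0.80 (SD, n = 6 libraries), below 0 in 6 of 6, with p = 0.0312 in the exact sign-flip permutation test and 0.0729 after adjustment over 7 desert against other measures. That p is the smallest 6 libraries allow.

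Density fell with distance from a gene, and most of the fall lay before the 50 kb limit. Inside genes the lists held 13.6 to 35.5 peaks per Mb, at 10 to 50 kb 4.75 to 9.25, at 50 to 100 kb 3.94 to 7.90, at 100 to 250 kb 2.62 to 7.37, and at 250 to 500 kb 1.495 to 6.44. In 5 min replicate 1 the slope was shallow beyond 10 kb: 8.44 per Mb at 10 to 50 kb, 7.90 at 50 to 100 kb and 6.44 at 250 to 500 kb. In NT replicate 2 the same bins held 9.25, 4.11 and 1.495 peaks per Mb. Over 500 kb from a gene, where only 29 to 63 peaks a list lay, the density was 1.71 to 3.71. Within 5 kb on either side of the threshold, peaks inside the desert limit and outside it numbered 108 and 111, then 138 and 129, in the NT replicates, 187 and 232, then 136 and 174, at 5 min, and 112 and 144, then 101 and 150, at 60 min. Fewer lay inside than outside in 5 of 6 lists. Median widths were 369 to 503 bp inside and 348 to 549 bp outside.

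**Figure D2:**
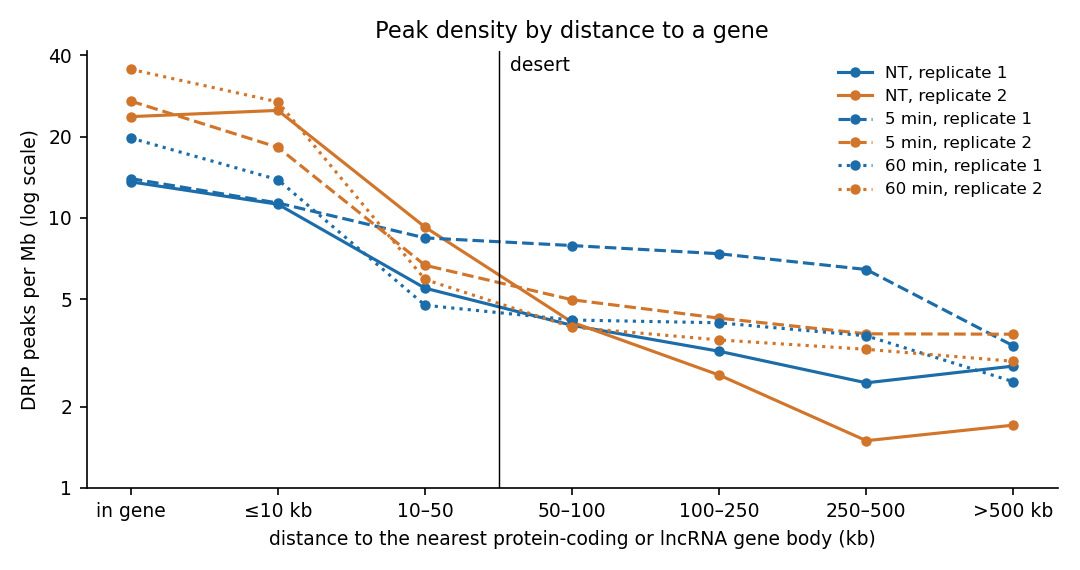
DRIP peaks per Mb (log scale) in bins of distance to the nearest protein-coding or lncRNA gene body, one line per DRIP library, with desert bins right of the vertical line. All 6 lines fall from genes to deserts, and the 5 min replicate 1 line stays the highest from 50 to 500 kb.

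Desert peaks were narrower than other peaks in all 6 lists. Their median width was 480 and 380 bp in NT, 519 and 377 bp at 5 min, and 385.5 and 367 bp at 60 min, against 569 and 519 bp, 546 and 469 bp, and 497 and 557 bp for other peaks. The mean log2 width ratio was -0.34 ± 0.18 (SD, n = 6), with an exact sign-flip p of 0.0312, adjusted 0.0729. The widest 10% of desert peaks began at 754 to 1030 bp, and those of other peaks at 1237 to 2538 bp. Wide peaks were rarer in deserts, although the widest desert peak reached 7193 bp.

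Fold enrichment over input at the summit, the strength that MACS2 gives each peak, was compared as a percentile within the list because it is not on one scale between libraries. Desert peaks had a median percentile of 50.5 and 39.4 in NT, 57.6 and 39.3 at 5 min, and 47.7 and 30.2 at 60 min. They ranked below other peaks in 4 lists, above them in 5 min replicate 1 and level in NT replicate 1, a mean difference of -6.06 percentile points (exact sign-flip p = 0.188, adjusted 0.263). It shrank to -1.06 with lists of equal size, was -9.10 without 5 min replicate 1 and -3.22 without 60 min replicate 2. The top 10% of a list took 6.48% and 3.14% of the desert peaks in NT, 11.4% and 4.90% at 5 min, and 6.50% and 2.04% at 60 min. Only in 5 min replicate 1 did the top 10% of the list take more than 10% of its desert peaks.

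Few desert peaks recurred between replicates. A peak of the other replicate of the treatment met 20.8% and 23.3% of desert peaks in NT, 17.9% and 29.9% at 5 min, and 21.0% and 23.1% at 60 min. For other peaks the shares were 61.0% and 26.3%, 48.1% and 23.3%, and 71.5% and 29.1%. Desert sharing was lower in 5 of 6 lists, by 20.6 percentage points on average (exact sign-flip p = 0.125, adjusted 0.219). The gap was wide in the replicate 1 lists and small in the longer replicate 2 lists, and the part of list length in it was not tested. The counts behind it at 5 min were 562 of 3142 and 574 of 1917 desert peaks.

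In replicate 1, desert peaks met the 5 min list of the same replicate, the one with most desert peaks, more often than the other replicate of their own treatment. Of the NT replicate 1 desert peaks, 39.5% met a peak of 5 min replicate 1 and 20.8% a peak of NT replicate 2. Of those of 60 min replicate 1, 38.2% met a peak of 5 min replicate 1 and 21.0% a peak of 60 min replicate 2. Other peaks went the opposite way: 27.9% of those of NT replicate 1 met 5 min replicate 1 and 61.0% met NT replicate 2.

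Merged over the 6 lists, the peaks gave 143381 intervals, of which 7448 were desert intervals. A single list accounted for 5603 of these, or 75.2%, against 66.7% over all intervals. All 6 lists contributed to 94 desert intervals, or 1.26%, against 2.61% over all intervals. Desert peaks found in no other list made up 40.1% and 53.8% of the desert peaks in NT, 60.3% and 48.7% at 5 min, and 46.3% and 43.9% at 60 min. For other peaks the shares were 21.8% and 41.3%, 32.9% and 26.3%, and 18.3% and 43.0%, so that in 60 min replicate 2 desert and other peaks were nearly level. Those 1894 peaks of 5 min replicate 1 had a median width of 478 bp and a median percentile of 48.4, whereas the lone desert peaks of the 5 other lists had medians of 24.3 to 37.4.

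RNase H degrades the RNA of a hybrid, so a peak that recurs in the RNase H list is one that the digestion did not remove. Desert peaks met a peak of the matched RNase H list in 0.27% and 13.0% of cases in NT, 2.71% and 22.5% at 5 min, and 1.91% and 29.6% at 60 min. Other peaks did so in 0.45% and 10.7%, 2.79% and 33.4%, and 1.69% and 49.4%. The overlap was higher in replicate 2, where the RNase H lists were longer. The lists of replicates 1 and 2 had 473 and 15790 peaks without CPT, 3439 and 50353 after 5 min, and 5392 and 67188 after 60 min. In replicate 2 the desert share was above that of other peaks in NT and below it at 5 and 60 min. The mean difference over 6 lists was -4.74 percentage points (exact sign-flip p = 0.375, adjusted 0.375). With the DRIP lists cut to 30314 peaks and the RNase H lists to 473, their shortest sizes, this difference became 0.47. No desert share then exceeded 5.31%. An RNase H list of 473 peaks can meet few peaks of any kind, so this setting cannot show how desert peaks respond to RNase H. Counted against any of the 6 RNase H lists, 25.4 to 39.97% of desert peaks and 44.7 to 67.3% of other peaks were met. RNase H lists had desert peaks of their own, which took 7.19% and 5.24% of the list in NT, 9.25% and 4.11% at 5 min, and 9.51% and 2.83% at 60 min, a larger share than in the matched DRIP list in 5 of 6 pairs.

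**Figure D3:**
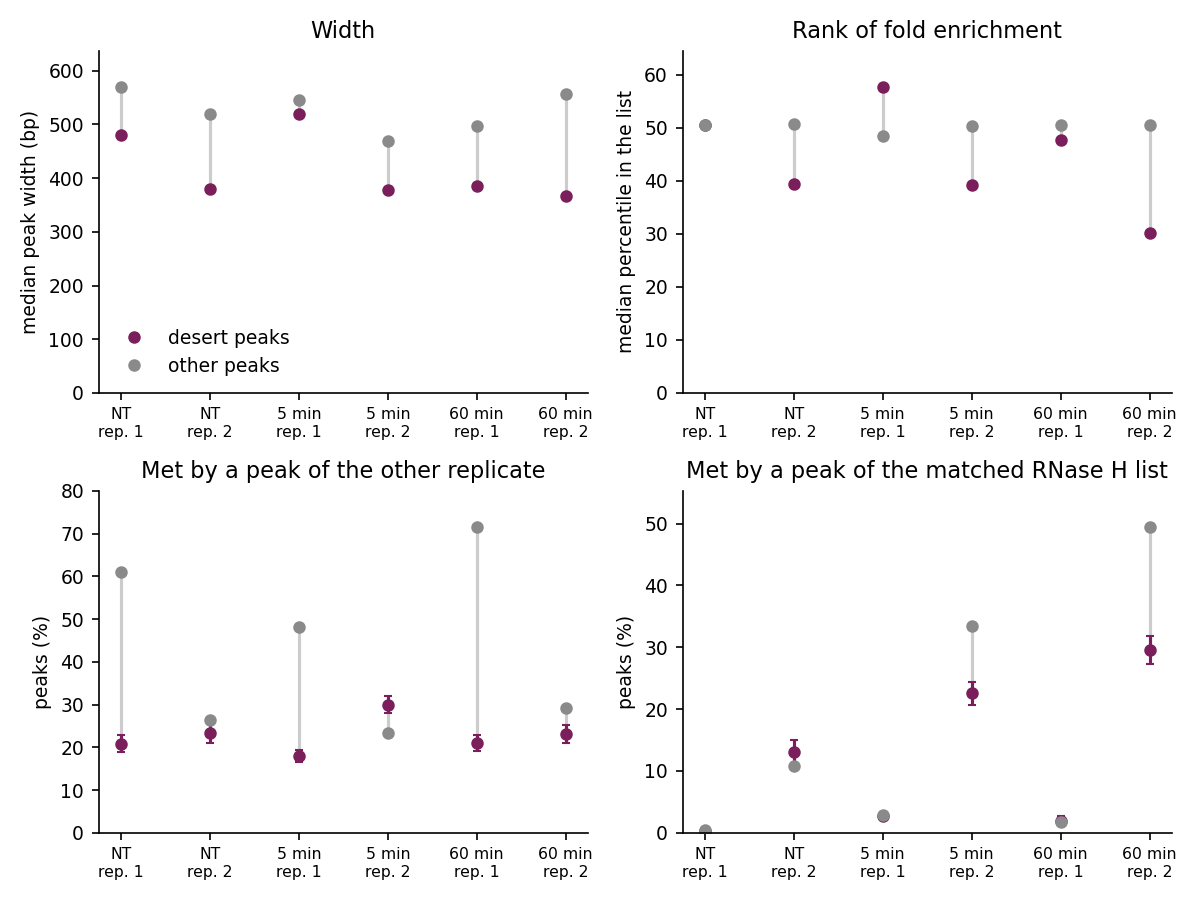
Desert and other peaks in each DRIP library: median width in bp, median percentile of fold enrichment within the list, percent met by a peak of the other replicate, and percent met by a peak of the matched RNase H list; bars in the lower panels are 95% Wilson intervals and grey lines join the 2 values of a library. Desert widths lie below other widths in all 6 libraries, and the gap in replicate sharing is widest in the replicate 1 libraries.

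To follow single places through the treatment, peaks present in both replicates of at least one treatment were merged into 28518 regions, of which 863 (3.03%) lay in deserts. A region counted as present where both replicates had a peak and as absent where neither did. The names of the patterns follow the study's kinetic classes, but they are built here from presence alone and not from read counts, and no test per region is possible.

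Gains at 5 min were the leading change in deserts. Of the 863 desert regions 236 (27.3%, 95% Wilson interval 24.5 to 30.4%) were gained at 5 min, against 13.6% of all regions, and 64 (7.42%) were lost, against 12.6%. The interval covers counting error over regions only, not the spread between libraries. At 60 min 110 (12.7%) were gained, against 29.7% of all regions, and 91 (10.5%) were lost, against 12.5%. Desert regions were thus over the general share for gains at 5 min and under it for gains at 60 min.

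Transient gains, absent in NT, present at 5 min and absent at 60 min, took 126 desert regions (14.6%, interval 12.4 to 17.1%), against 4.50% of all regions. This interval too leaves out the spread between libraries. Late gains took 33 (3.82%), against 14.6%, and stable gains 25 (2.90%), against 5.33%. Among losses, 48 regions (5.56%) were stable, 3 (0.35%) transient and 8 (0.93%) late, against 7.87%, 1.53% and 0.828% of all regions. In 93 regions (10.8%, against 13.0% of all regions) peaks were present throughout. The other 527 regions (61.1%, against 52.3%) had a peak in only 1 replicate of some treatment and got no pattern. Put the other way, 9.81% of all transient gains lay in deserts and 0.79% of all late gains.

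The transient share of desert regions stayed above the general one when lists were built otherwise. It was 25.1% against 11.1% once every region that met any RNase H peak was left out, 13.3% against 3.89% with lists of equal size, and 12.7% against 3.04% at a -log10 q of at least 3. These 3 settings were chosen after seeing the data. Each pattern needs both 5 min lists, so the longer desert list of 5 min replicate 1 enters into all of these shares, and its part in them was not tested.

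**Figure D4:**
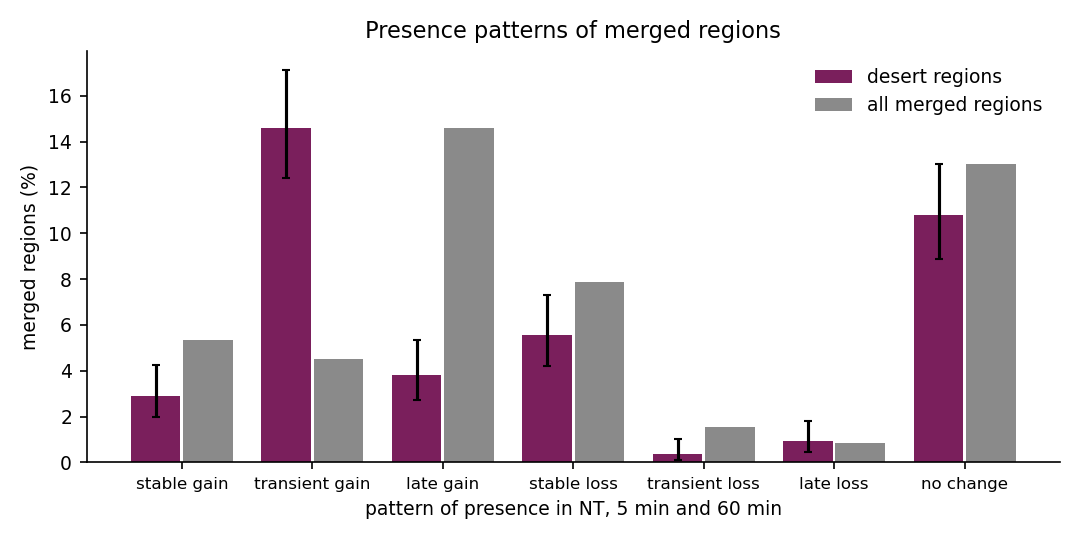
Percent of the 863 desert regions (purple, bars of 95% Wilson intervals) and of all 28518 merged regions (grey) in each pattern of presence in NT, 5 min and 60 min; regions without a pattern are left out. Transient gain stands at 14.6% of desert regions and 4.50% of all regions, and late gain at 3.82% and 14.6%. The intervals cover counting error only, not the spread between libraries.

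Desert regions were also narrower, with a median of 784 bp against 1430 bp, and met an RNase H peak less often (58.9% against 73.9%). The desert transient gains were the exception in width, with medians of 651 bp in deserts and 630 bp elsewhere. They met an RNase H peak in 29.4% of cases, and elsewhere in 35.3%. Desert stable gains were 918 bp wide at the median where those near genes were 2430.5 bp, and 60.0% against 94.9% met an RNase H peak. Regions without change were the widest class, 1485 bp in deserts and 5966 bp elsewhere.

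The strongest of the constant desert regions held ribosomal sequence. It spanned 2528 bp at chr1:228782511-228785038, contained the 5S rRNA pseudogene RNA5SP18 and lay 86187 bp from RHOU. 5S rRNA is transcribed by RNA polymerase III from an array on this chromosome arm, and rRNA genes are not among the gene types that the desert rule counted. Its percentiles were 99.9 and 99.9 in NT, 99.8 and 99.95 at 5 min and 99.9 and 99.9 at 60 min, with summits enriched 15.6 to 33.3-fold over input. All 6 RNase H lists had a peak there.

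The other 5 leading constant regions contained no annotated gene. They were chr4:28117412-28119205 (108385 bp from a lncRNA gene), chr4:94949294-94950715 (88227 bp from SMARCAD1-DT, a divergent lncRNA of the chromatin remodeler gene SMARCAD1), chr6:87286160-87288142 (359103 bp from the serotonin receptor gene HTR1E), chr2:161622961-161624823 (272642 bp from RBMS1, an RNA-binding protein gene) and chr6:81537958-81539143 (359160 bp from a lncRNA gene). Their lowest percentile over the 6 lists, the value by which they were picked, was 88.5 to 94.2. Over all 93 constant desert regions the median of that value was 45.3. Each of the 5 met a peak in 3 to 5 of the RNase H lists. Of all 93 constant desert regions, 86 (92.5%) met an RNase H peak, against 98.1% of the constant regions near genes. The median percentiles of the 93 were 86.0 and 71.3 in NT, 94.2 and 86.7 at 5 min, and 85.7 and 70.3 at 60 min.

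Gained regions ranked lower at the median than constant ones. A constant region needed a peak in every DRIP list, whereas a gained region needed to have none in NT. The first rule favours strong places, so this order is a description without a test. The first transient gain, chr2:167543718-167544777, lay 75725 bp from the sodium channel gene SCN7A. It had percentiles of 92.8 and 90.4 at 5 min and widths of 1060 and 404 bp, with no peak in the 4 other DRIP lists. The RNase H list of 60 min replicate 1 did have a peak there. The second, chr4:162035313-162035775, had 82.0 and 80.9, and met a peak in the RNase H list of 60 min replicate 2. Over all 126 transient gains the medians were 63.2 in replicate 1 and 33.7 in replicate 2, and 89 of them met no RNase H peak. The 25 stable gains had medians of 86.9 and 44.3 at 5 min and 63.9 and 34.8 at 60 min, and the 33 late gains 41.6 and 37.7 at 60 min.

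The first stable gain, chr3:93520586-93522604, lay 69290 bp from PROS1, the gene of the anticoagulant protein S. Its percentiles were 88.4 and 63.8 at 5 min and 63.9 and 88.3 at 60 min. The second, chr6:80073492-80074978, lay 50390 bp from the lncRNA gene LCAL1, just inside the desert limit, with 92.8 and 84.8 at 5 min and 61.4 and 54.9 at 60 min. The late gains chr4:134649625-134650514 and chr12:44048409-44048831 (63963 bp from PUS7L, a pseudouridine synthase family gene) had 93.3 and 90.7, and 83.1 and 89.8, at 60 min. All of these had no NT DRIP peak in either replicate, which the pattern itself requires. The first stable gain met RNase H peaks of 5 min replicate 2 and 60 min replicate 2, and the second met none. The first late gain met an RNase H peak of 60 min replicate 2. The second late gain met those of 5 min replicate 2 and 60 min replicate 2.

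Of the lost regions, chr1:229103979-229104445 (54074 bp from LINC02815) had NT percentiles of 83.3 and 85.4 and chr5:89102012-89102856 had 91.4 and 79.4, and neither met an RNase H peak. Transient loss led with chrX:122184742-122185320, 132685 bp from the glutamate receptor gene GRIA3, at 91.4 and 91.4 in NT and 99.3 and 87.9 at 60 min. The RNase H list of 5 min replicate 2 had a peak there. The second transient loss was chr5:84235727-84236259, at 86.9 and 62.6 in NT and 87.7 and 81.7 at 60 min, and met no RNase H peak. Late loss led with chr19:57492968-57493340, 133043 bp from the lncRNA gene MIMT1, which reached 92.5 and 33.8 in NT and 70.3 and 71.6 at 5 min. Its EcoRI edge, printed above, was shared by all 4 lists that carried it, and the SspI edge of the 5S region by 3 lists. The first late loss met no RNase H peak. The second late loss, on chromosome 8, lay 134605 bp from the potassium channel gene KCNV1 and met RNase H peaks of 5 min replicate 2 and 60 min replicate 2.

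The widest desert peak of 3 lists was a single place on chromosome 3. It was 6988 bp wide in 5 min replicate 2, 4892 bp in 60 min replicate 1 and 7193 bp in 60 min replicate 2 (chr3:104157433-104164625), 921127 bp from ALCAM, the gene of a cell adhesion molecule. A peak stood there in all 6 DRIP lists and in 5 RNase H lists. Its GC content was 45.5 to 47.7%. The 3 remaining lists had their widest desert peaks on chromosome 8 (3579 bp, NT replicate 1), in the pericentromeric block of chromosome 12 (5276 bp, NT replicate 2) and on chromosome 16 (4883 bp, 5 min replicate 1). In all lists the peak farthest from any gene was on chromosome 3. In 5 lists it was the same place, 1258964 to 1259726 bp from the nearest gene, which had a peak in all 6 DRIP lists and in 1 RNase H list. In 60 min replicate 2 it was another peak 1295504 bp from ALCAM at percentile 15.6, found in no other DRIP list.

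Many blocks of gene-free DNA held no desert peak, and some held many. Blocks had a median size of 80.1 kb and reached 2.59 Mb, and the part of size in these counts was not tested. Of the 2722 desert blocks 1130 (41.5%) held no peak in any list and 216 held peaks in all 6 lists. The 5 min lists reached 1114 and 839 blocks, the NT lists 704 and 656, and the 60 min lists 816 and 749. The additional peaks at 5 min thus came with more blocks reached. The counts that follow are summed over the 6 lists, so a place with peaks in several lists counts more than once. The block with the highest count was that between 34422183 and 38499276 on chromosome 12, which spans the centromere and holds 1.08 Mb of known sequence, with 139 of the 11120 desert peaks. A block of 0.35 Mb at 142722311 to 143121186 on chromosome 8 followed with 97. The third, 110650446 to 111574522 on chromosome 10 between LINC02661 and XPNPEP1, had 79, of which 34 were in 5 min replicate 1 and 5 to 13 in each of the other lists.

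The recurrent words stood in a large part of the desert peaks. At least 1 of the 6 lay within 250 bases of the summit in 19.0% and 8.97% of desert peaks in NT, 18.1% and 16.01% at 5 min, and 19.7% and 17.6% at 60 min. Of other peaks 3.76% and 0.92%, 5.58% and 2.37%, and 2.81% and 1.39% had one. Among all windows of the same length, 1.13% in deserts and 0.66% in the rest of the genome had one. In each list the share of desert peaks stood above that of other peaks and above that of desert DNA at large. The words were chosen from the desert peaks, so these shares are a description without a test.

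**Figure D5:**
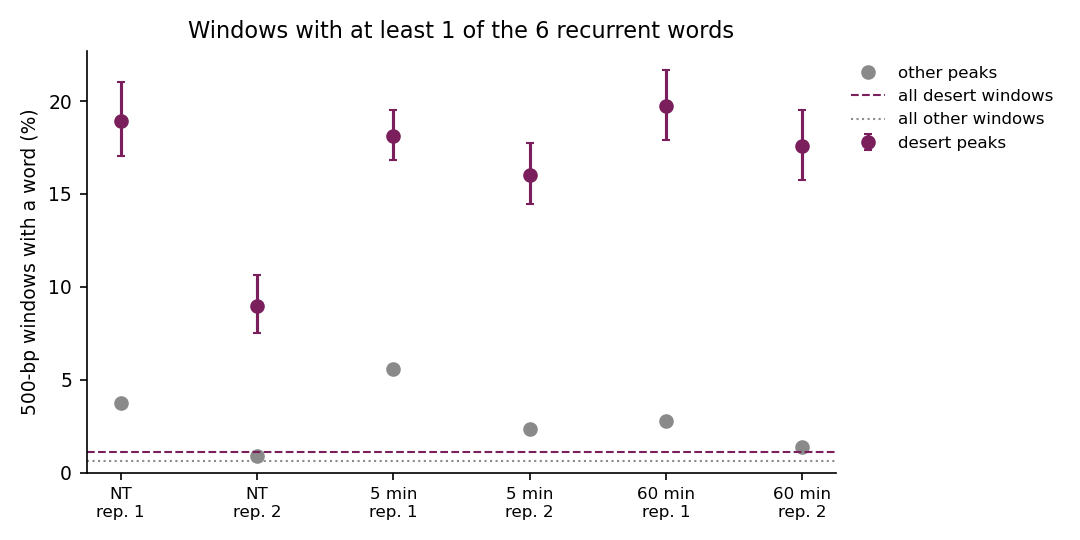
Percent of 500-bp windows around peak summits that hold at least 1 of the 6 recurrent words, for desert peaks (purple, 95% Wilson intervals) and other peaks (grey) of each DRIP library; lines give the share among all 500-bp windows of desert DNA (1.13%) and of the rest (0.66%). Desert peaks lie between 8.97 and 19.7%, above other peaks of the same library in all 6.

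Desert peaks with a word recurred between replicates more often than those without. A peak of the other replicate met 24.1% and 58.1% of them in NT, 23.7% and 45.0% at 5 min, and 32.6% and 44.7% at 60 min, against 20.02% and 19.9%, 16.6% and 27.1%, and 18.1% and 18.4% without a word. Their median percentiles were also higher in all 6 lists, 48.7 to 65.7 against 26.9 to 52.1. They also met the matched RNase H list more often in 4 of 6 lists, in 44.7% against 26.3% of cases in 60 min replicate 2, 28.3% against 21.4% in 5 min replicate 2 and 5.10% against 2.18% in 5 min replicate 1. The 5 longer RNase H lists had a word in 5.07 to 18.3% of their own desert peaks and in 1.58 to 2.34% of their other peaks. Words were picked from the desert peaks of all DRIP lists pooled, where a place with peaks in several lists counted more than once. That choice favours recurring places, so these comparisons are a description without a test. Desert peaks without any of these exact words, which may still hold other parts or variants of the element, numbered 1189 and 1187 in NT, 2573 and 1610 at 5 min, and 1384 and 1291 at 60 min.

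Of the 863 desert regions 259 (30.0%) held a word, and 3.62% of the regions near genes did. A word stood in 39 of 93 constant regions (41.9%), 159 of 527 without a pattern (30.2%), 37 of 126 transient gains (29.4%), 7 of 25 stable gains and 9 of 33 late gains. Losses held one in 6 of 48 stable (12.5%), 1 of 3 transient and 1 of 8 late cases. Near genes a word stood in 4.72% of constant regions and 3.97% of those without a pattern. For gains near genes it was 10.3% (transient), 4.08% (stable) and 1.16% (late), and for losses 0.68% (stable), 1.39% (transient) and 3.51% (late). Wider regions have more room for a word, and the part of width in these shares was not tested. Among desert regions without a word, 89 of 604 were transient gains, or 14.7%.

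Desert peaks had a lower GC content than other peaks and lay on shorter restriction fragments. Their mean GC content was 41.9% and 45.1% in NT, 40.8% and 41.4% at 5 min, and 41.7% and 41.9% at 60 min, above the 37.8% of desert DNA in every list. Other peaks stood at 46.7 to 52.1%. The mean difference was -7.28 ± 1.35 percentage points (SD, n = 6; exact sign-flip p = 0.0312, adjusted 0.0729). The median restriction fragment under a desert summit was 1194 to 2402.5 bases long, that under other summits 1889 to 3131 and longer in each list. Over all DNA, base by base, the median fragment was 779 long in deserts and 964 in the rest of the genome. The part of that background in the contrast between peaks was not tested. An edge within 1 base of a restriction site ended 59.6% and 54.9% of desert peaks in NT, 63.9% and 61.9% at 5 min, and 49.0% and 58.7% at 60 min. That share differed from other peaks by 1.39 percentage points on average, higher in 3 lists and lower in 3 (exact sign-flip p = 0.3125, adjusted 0.365).

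Almost no desert peak coincided with any other annotated gene. Between 97.4 and 98.2% overlapped none, 27 to 54 a list overlapped a pseudogene and at most 1 a list a small RNA gene. Whether this DNA was transcribed in these cells was not measured here.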

How the data were processed

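Per the methods, reads were trimmed with Cutadapt, aligned to hg19 and the yeast spike-in with BWA, cleared of blacklisted and duplicate reads, and peaks were called by the authors with MACS2 for each library against its paired input. The peak threshold and the handling of reads with several equal matches are not given in the sources used here. The authors deposited, per peak, a fold enrichment (a ratio to input), −log10 p and q values (lowest −log10 q 1.30) and a score (not used). Spike-in scaling is not part of the lists. Input libraries were not analysed here. Distances were measured to 20163 protein-coding and 18934 lncRNA gene bodies of GENCODE 44 lifted to GRCh37 (the genome of hg19), with sequence from the same build. Overlap meant 1 bp or more. Treatments were compared over libraries by exact permutation tests and desert with other peaks by exact sign-flip tests within libraries, both two-sided, with Benjamini-Hochberg adjustment over 15 and 7 comparisons. Functions were tested on simulated data (Python 3.11.15, NumPy 2.4.6, pandas 2.3.3, SciPy 1.17.1). Regions were named by the highest minimum percentile within each pattern (6 constant, 2 of each other pattern), the widest and farthest peak of each list and the 3 blocks with most peaks. Members, lists and words were chosen with earlier results of these data known. Alternatives covered distance, gene types, threshold, list size, chromosomes, gaps, merging, overlap, ranking and each library left out. The lists share replicate numbers across treatments, and no source ties a number to a shared day or culture. Some sequences are not reported here.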

Additional observations from a re-analysis of the deposited data

How the results depend on the processing

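No treatment difference passed the test in the settings run, and 2 libraries against 2 could not have passed. In all of them the number of desert peaks rose at 5 min. Its 60 min minus NT difference turned to -28 with deserts set at over 20 kb and to -338 with lists of equal size. Lists of equal size also turned the 60 min minus NT difference in median width to 20.5 bp, those in RNase H overlap to -2.10 (5 min) and -1.81 (60 min) percentage points, and the desert minus other RNase H overlap to 0.47. Each RNase H list was cut to 473 peaks there, which left little overlap to compare. Against any RNase H list the 5 min minus NT overlap became -4.15. The restriction edge difference turned to -1.73 at a -log10 q of at least 3, -2.07 with equal lists and -2.89 with peaks up to 1000 bp apart merged. The cause was not tested.

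Leaving out 1 library at a time, the share moved between -0.26 and 5.63 percentage points (5 min minus NT) and between -1.70 and 0.68 (60 min minus NT), the median width between -53 and 89 bp (5 min minus NT), and the percentile between -5.66 and 12.7 (5 min minus NT) and between -14.7 and 2.72 (60 min minus NT). The RNase H overlap moved between -3.95 and 15.9 (5 min minus NT), -4.74 and 22.9 (60 min minus NT) and -10.7 and 16.9 (60 minus 5 min). The number at 5 min minus NT stayed between 531.5 and 1756.5, and that at 60 minus 5 min between -1497 and -272. The desert minus other percentile lay between -9.10 and -3.22, and was -1.06 with lists of equal size and -9.43 when ranked by -log10 p.

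Counts of desert regions followed the definition of absence. With absence as no peak in at least 1 replicate there were 96 stable, 327 transient and 139 late gains, 141 stable, 27 transient and 40 late losses, and 0 without a pattern. These gains were 11.1, 37.9 and 16.1% of desert regions, against 10.6, 12.5 and 34.3% of all regions. These losses were 16.3, 3.13 and 4.63%, against 19.2, 7.43 and 2.87%. Without regions that met an RNase H peak, 355 regions gave 10 stable (2.82%, against 1.14% of all regions) and 18 late gains (5.07%, against 17.4%). They gave 3 late losses (0.85%, against 1.06%), 7 constant (1.97%, against 1.02%) and 193 without a pattern (54.4%, against 45.6%). Lists of equal size gave 452 regions with 3 stable (0.66%, against 6.01% of all regions), 60 transient and 5 late gains (1.11%, against 12.4%). They gave 50 constant (11.1%, against 14.98%) and 289 without a pattern (63.9%, against 46.1%). A -log10 q of at least 3 gave 504 regions with 10 stable (1.98%, against 5.46% of all regions), 64 transient and 12 late gains (2.38%, against 14.98%). It gave 28 stable losses (5.56%, against 7.87%) and 1 late loss (0.198%, against 0.546%). It left 61 constant (12.1%, against 13.2%) and 326 without a pattern (64.7%, against 53.3%). The last 3 settings were added after seeing the data. The desert share of stable gains thus lay over the general share with the looser absence and without RNase H regions, and under it otherwise.

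With a replicate block (differences within a replicate number) the mean differences are unchanged by construction, 1144 peaks at 5 min minus NT with an exact sign-flip p of 0.5, the smallest 2 pairs allow, and it changed no call. Since the numbers are not known to pair cultures, this is no paired design by the sources used here.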
